A study of Mus musculus with 4 samples.

Results

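Max peaks without a Bio-Myc peak and without a canonical E-box were examined at coding promoters of mouse embryonic stem cells (ESCs). A member of this group was a peak of the Max ChIP-Seq that met every condition of a fixed rule. It overlapped no Bio-Myc peak by 1 bp or more, lay within 1 kb of a transcription start site (TSS) of a protein-coding gene, and held no CACGTG under its whole width. Chromosomes 8, X, Y and M and peaks at the upper limit of the score, 3100, were left out. The rule gave 3203 peaks, which were 31.7% (95% Wilson interval 30.8 to 32.6) of the 10104 Max peaks in this scope. The Max list held 11570 peaks in all. The members were 46.8% of the 6851 peaks at coding promoters and 70.2% of the 4560 coding promoter peaks that met no Bio-Myc peak. The members were thus selected on the measured overlap with Bio-Myc peaks, on the E-box and on position, so none of these is a result.

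The study profiled chromatin of the ESC line E14 with 4 ChIP libraries. Bio-Myc, a biotin-tagged Myc driven by the EF1α promoter, was pulled down with streptavidin beads from 1 stable clone. Endogenous Max was precipitated with an anti-Max antibody from parental wild type cells, and an IgG ChIP from the same kind of cells was its control. The labels give parental wild type cells for the mock streptavidin ChIP as well, while the methods describe cells with the biotin ligase BirA and no tagged protein. Members therefore lacked a called peak of an ectopic tagged protein in another cell clone, and nothing here measured endogenous Myc. Each ChIP was 1 library, so the variation between cultures is unknown for every value below. All intervals below cover counting error over regions only, and neighbouring regions are not independent. A peak list holds no expression values, so the labelled cell type could not be checked against its marker genes.

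Max is a small basic helix-loop-helix leucine zipper protein that binds DNA as a dimer, with itself or with Myc, Mxd, Mnt and Mga proteins. Its dimers prefer the palindromic E-box CACGTG, and several tolerate variants with a changed base. Mga also carries a T-box domain and joins Max and E2F6 in the PRC1.6 complex, which silences germline genes in ESCs.

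Sequences of single members are given as examples of the motifs that were counted. Each line gives plus-strand mm9 sequence around the centre of the highest-scoring member with a given motif in its central 100 bp, and the capitals mark the motif or its reverse complement. Where the stretch met an untranslated region, only 30 bases were taken.
Mesp2: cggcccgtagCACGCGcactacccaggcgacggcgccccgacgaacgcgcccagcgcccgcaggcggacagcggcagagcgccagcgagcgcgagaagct
Hsf5: ggcgtgccgggaCTCGTGcgccaacggtcc
Zfp335: gactctagaagtCACATGctgcccggtgtt
Cntln: ggaaaagctccgCGCATGCGtaggacggca
Gm10190: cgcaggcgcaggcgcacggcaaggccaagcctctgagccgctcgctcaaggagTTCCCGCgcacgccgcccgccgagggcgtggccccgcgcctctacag
Zfyve16: cttgatctatGCGCATGCGCgctgctcggg
Ccdc134: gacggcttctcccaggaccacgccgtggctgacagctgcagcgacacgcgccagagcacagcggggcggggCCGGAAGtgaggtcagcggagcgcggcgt
Skp1a: ggccggctgtgTGACGTCAcgggctcgggg
Tmem80: gggaggagcgAAGATGGCGggagggtgcgg
Gm6406: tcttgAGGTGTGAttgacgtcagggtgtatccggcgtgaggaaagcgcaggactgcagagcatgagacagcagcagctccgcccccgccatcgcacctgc
The Mesp2 stretch (chr7:86955984-86956083) held the E-box variant CACGCG in coding sequence, 39 bp before the peak centre. Mesp2 encodes a basic helix-loop-helix factor of somite formation. Hsf5 (chr11:87430629-87430658) held CACGAG, Zfp335 (chr2:164737212-164737241) CATGTG and Cntln (chr4:84530265-84530294) CATGCG, the last on both strands. Gm10190 (chr17:80772880-80772979) held the E2F motif GCGGGAA. Zfyve16 (chr13:93300835-93300864) held the NRF1 motif GCGCATGCG on both strands, which contains CATGCG. The Cntln stretch also held the NRF1 motif, which there ended outside the central 100 bp. Ccdc134 (chr15:81958212-81958311) held the ETS motif CCGGAAG directly beside the SP/KLF motif GGGGCGGGG. Skp1a (chr11:52045455-52045484) held the CREB/ATF motif TGACGTCA, and Tmem80 (chr7:148514078-148514107) the YY1 motif AAGATGGCG. Gm6406 (chr9:98756871-98756970) held AGGTGTGA, the T-box motif, and TGACGTCA shortly after it. The Ccdc134 stretch also held CACGCG.

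Members were mostly weak peaks among the Max peaks at coding promoters. The score, −10 times the log10 of the MACS p-value, had a median of 137.8 (quartiles 102.4 and 200.7) and ranged from 80.02 to 1652. In 728 members, 22.7%, the score was below 100, and 80 members, 2.5%, reached 500. Median scores of the other coding promoter classes were 186.3 for 1357 Max-only peaks with an E-box, 215.1 for 1107 shared peaks without one and 332.6 for 1184 shared peaks with one. Median widths rose in the same order, from 777 bp in members to 854, 909 and 1058 bp. The 3253 Max peaks away from coding promoters had a lower median score, 128.5, and a lower median width, 756 bp. A narrow peak more easily lacks an E-box under its whole width, so the rule itself favours narrow members over the E-box classes. Scores and widths come from the peak calling that also chose the members, so they are given without a test. Bio-Myc binding too weak for its own peak limit cannot be told apart from no binding.

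**Figure D1:**
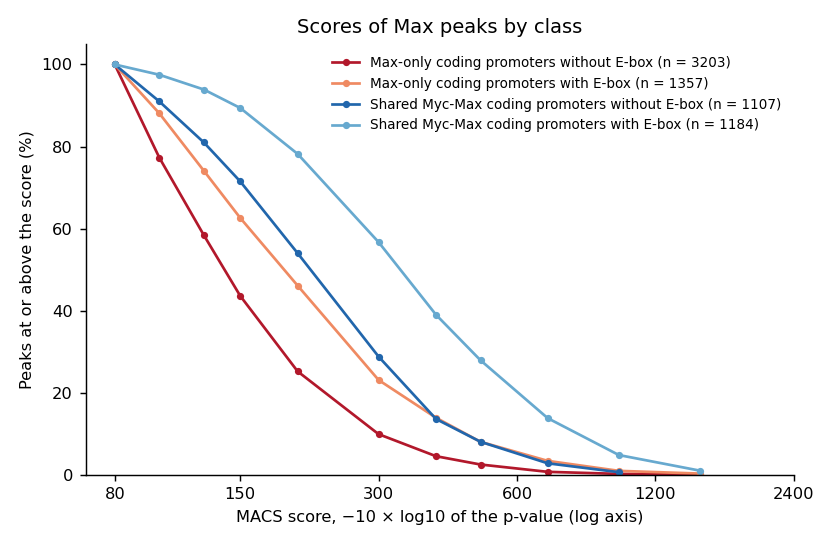
The horizontal axis is the MACS score on a log axis, and the vertical axis is the percent of peaks of a class at or above it. At a score of 150 or more the members, with 43.6%, lie lowest and the shared peaks with an E-box, with 89.4%, highest.

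The 10 highest-scoring members had scores from 891.63 to 1652.08. The highest, at Gm10722, was a special case. It spanned chr9:2999888-3001756, beginning just before base 3000001, the first assembled base of chromosome 9, and its central 200 bp had a GC content of 33%. In all, 13 members with scores of 128.54 to 1652.08 and GC contents of 33% to 38% lay in the first 100 kb of that chromosome. The whole group of members had a mean GC content of 66.1%. Gm10190 followed with 1479.74, and the peak at Lypd4 and Dmrtc2, a doublesex-related gene on the opposite strand, had 1138.56. Efha1 had 1083.6. Hsf5, which encodes a heat shock factor family member of the male germline, had 1042.64, with the peak centre 1 bp upstream of its TSS. Zfp335, a zinc finger gene, had 1039.38, Gm960 had 1007.79 and Cntln, which encodes the centrosome protein centlein, had 985.11. Rnf130, which encodes a RING finger ubiquitin ligase, had 904.31 and its peak ended 51 bp upstream of the TSS. Mesp2 had 891.63 with the centre 420 bp downstream of the TSS. Gm960 held none of the 17 motifs searched in its central 200 bp, while Hsf5 held 4.

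The values next to each limit show how sharp the rule is. Lonrf2 and Jkamp, both at 80.02, and Map3k9, at 80.03, had the lowest scores among the members. At the upper limit of 3100, 2 peaks that met every other condition were left out, at Gm10801 and Gm10800 on chromosome 2, with GC contents of 33.5% and 36%. The members nearest to a Bio-Myc peak were Lhx3 at 14 bp, Sltm at 18 bp, Fam20c at 22 bp, and Bahcc1 and Arih1 at 38 bp. Just outside, the Max peaks at Pdk1, Ywhah and Atf2 overlapped a Bio-Myc peak by 19, 31 and 31 bp. The members that reached the promoter window with the least margin lay 995 bp from the TSS at Apoe, 981 bp at Gucy2e, 976 bp at 4931429L15Rik, 967 bp at Elf2 and 965 bp at Apoa1. Lats2 and 9930013L23Rik, at 1008 bp, and Lrrc4, at 1012 bp, fell outside it.

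Most members were far from any Bio-Myc peak. The median gap was 84 kb (quartiles 27.41 and 266.2 kb), and 1488 members, 46.5%, were over 100 kb away. In all, 86 members, 2.68% (95% interval 2.18 to 3.3), lay within 1 kb of a Bio-Myc peak, and their median score was 122.7. The 1357 Max-only peaks with an E-box had a median gap of 85.98 kb.

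The members sat close to the TSS. Their centres had a median position 21 bp downstream of the nearest coding TSS (quartiles −73 and 182 bp). In 45.2% the centre was within 100 bp of a TSS and in 86.7% within 500 bp. The centre lay downstream of the TSS in 56.5% and upstream in 43.1%. By annotation, 29.1% of centres fell in an untranslated region, 26.8% outside coding genes, 22.9% in an intron and 19% in coding sequence. A further 2.15% fell in other exons of coding genes.

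**Figure D2:**
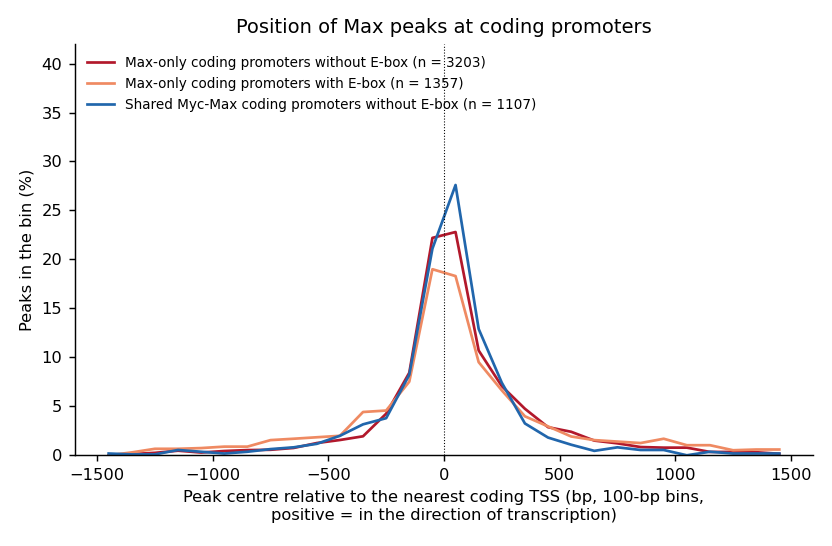
The horizontal axis is the distance from the nearest coding TSS to the peak centre in 100-bp bins, positive in the direction of transcription, and the vertical axis is the percent of peaks of a class. All 3 classes peak in the 2 bins beside the TSS, where the members hold 45.2% of their centres by the count within 100 bp.

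The share of peaks that covered a coding TSS differed from both neighbouring classes, in opposite directions. A wider peak covers a TSS more easily, and this share was not adjusted for width. Median widths were 777 bp in members, 854 bp in Max-only peaks with an E-box and 909 bp in shared peaks without one. The peak covered a coding TSS in 81% of members, 74.8% of Max-only peaks with an E-box and 89.3% of shared peaks without one. The difference from the Max-only peaks with an E-box was 6.25 percentage points, and the interval widened over all 10 comparisons of features (Bonferroni) was 2.5 to 10.2. Over 5 classes of GC content this difference was 2.97 points and its widened interval included 0. The difference from the shared peaks was −8.29 points (widened interval −11.4 to −4.85), and −3.84 points, with an interval that included 0, when the shared peaks were weighted to the members' scores. Centres within 100 bp of a TSS were more frequent in members than in Max-only peaks with an E-box, at 45.2% against 37.3% (7.89 points, widened interval 3.41 to 12.3). Against the shared peaks, at 48.9%, the widened interval of −8.57 to 1.18 included 0.

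Promoters with coding TSSs of both strands, whatever their orientation to each other, were less frequent among members than among shared peaks. Coding TSSs of both strands lay within 1 kb of the centre in 294 members, 9.18%, and in 19.1% of shared peaks without an E-box. The difference was −9.88 points with a widened interval of −13.7 to −6.43. In Max-only peaks with an E-box the share was 7.37%, and the widened interval of the difference, −0.803 to 4.14, included 0. With these peaks weighted to the members' scores the difference was 2.74 points and was called (0.286 to 5.19). Beside the Lypd4 and Dmrtc2 pair, a member of this kind lay at Taf9, which encodes a subunit of the general factor TFIID, with 735.83. Centres in coding sequence were more frequent in members than in shared peaks, at 19% against 14.5% (4.44 points, widened interval 0.711 to 7.83). When both classes were limited to peaks that cover a TSS, this difference was 1.87 points and its widened interval included 0. An E-box within 500 bp outside the peak was found in 12.2% of members and in 12.2% of both other classes, with widened intervals of the difference from −3.14 to 2.83 and from −3.38 to 3.04.

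CACGCG, an E-box variant, was the most frequent of the 17 motifs in the members. It was found in the central 200 bp of 766 members, 23.9% (95% interval 22.5 to 25.4). The same window around the outermost TSS held it in 9.64% of 20311 coding promoters and in 5.18% of 12825 coding promoters without a peak of either list. Windows 1 kb from the member centres held it in 2.54%. These windows also differed in base composition, with mean GC contents of 66.1% in members, 58.6% in all coding promoters, 54.7% in those without a peak and 47.9% in the windows 1 kb away. CCAAT, the NFY motif, was found in 18.5% of members and 26.9% of coding promoters without a peak, so its share was not raised. The TATA box TATAAA was found in 1.94% of members and 11.1% of coding promoters without a peak.

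Other letter orders of CACGCG were also found in many members. As a control, 11 hexamers with the same letters and the same number of CG pairs were counted. This control was chosen after the values were seen. Between 9.77% and 24.2% of members held each of these hexamers. CGCGCA reached 24.2%, against 23.9% for CACGCG, and the other 10 reached at most 20.1%. The ratio of the share in member centres to that in windows 1 kb away was 9.4 for CACGCG and 6.76 to 9.03 for the others. In the 2 bins of 100 bp beside the centre, CACGCG had 14.4 and 15.7 matches per 100 members, and the same-letter hexamers had a mean of 9.19 and 9.1.

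**Figure D3:**
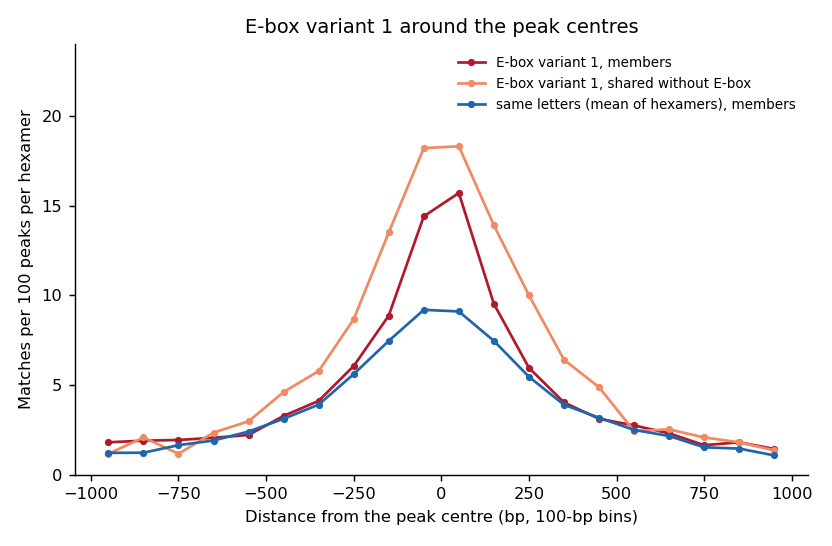
The horizontal axis is the distance from the peak centre in 100-bp bins, and the vertical axis is the number of matches per 100 peaks for each hexamer, with CACGCG drawn as E-box variant 1. The members reach 15.7 beside the centre, the shared peaks without an E-box 18.3 and the mean of 11 same-letter hexamers in the members 9.19.

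The other E-box variants were found in fewer members. CACGAG was found in 11.1%, CATGCG in 8.3%, CATGTG in 7.24% and AACGTG in 6.15%. In coding promoters without a peak these shares were 3.71%, 3.45%, 7.89% and 2.68%. Any of the 5 variants was found in 1467 members, 45.8% (95% interval 44.1 to 47.5), in 36.6% of Max-only peaks with an E-box, in 53.4% of shared peaks without one and in 26% of all coding promoters. CATGTG stood apart from the others, since it was more frequent 1 kb from the centres, at 11.8%, than at them.

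Motifs of other promoter factors were present in small shares. The ETS motif was found in 10.5% of members, the SP/KLF motif in 8.68%, the E2F motif in 7.68% and the NRF1 motif in 2.06%. The CREB/ATF motif was found in 1.81%, the YY1 motif in 1.22%, and the T-box motif and the BANP motif CTCGCGAG each in 1.12%. The octamer ATGCAAAT, which is read by Oct4, was found in 0.406%, and the ZNF143 motif ACTACAATT in 0.0937%. In all coding promoters the shares were 9.34% for ETS, 12% for SP/KLF, 4.28% for E2F and 1.69% for NRF1. They were 1.85% for CREB/ATF, 1.9% for YY1, 0.542% for the T-box motif and 0.911% for BANP. The octamer was found there in 0.921% and the ZNF143 motif in 0.3%. The motifs differ in length, so their shares are not comparable with each other. None of the 17 motifs was found in 981 members, 30.6%. These are exact matches on both strands, and a sequence without one may still hold a weaker site.

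Against both neighbouring classes, few motifs differed. Compared with the Max-only peaks with an E-box, 1 of 17 motifs was called by the interval widened over 34 comparisons. This was CACGCG, at 23.9% against 17.8%, a difference of 6.16 points (widened interval 1.93 to 10.1). It was 4.04 points, and no longer called, when the compared peaks were weighted to the members' GC content, and an E-box in the compared peak takes up letters in which another hexamer could lie. Compared with the shared peaks without an E-box, 3 motifs were called, all lower in the members. These were CACGCG, at 23.9% against 28.9% (−4.99 points, −10.1 to −0.179), the ETS motif, at 10.5% against 14.6% (−4.18 points, −8.2 to −0.603), and the YY1 motif, at 1.22% against 2.8% (−1.58 points, −3.69 to −0.148). None of the 3 was called in central windows of 100 bp. None was called when the shared peaks were weighted to the members' scores, where the intervals were wider and the differences were −2.23 points for CACGCG, −4.19 for the ETS motif and −2.27 for the YY1 motif.

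**Figure D4:**
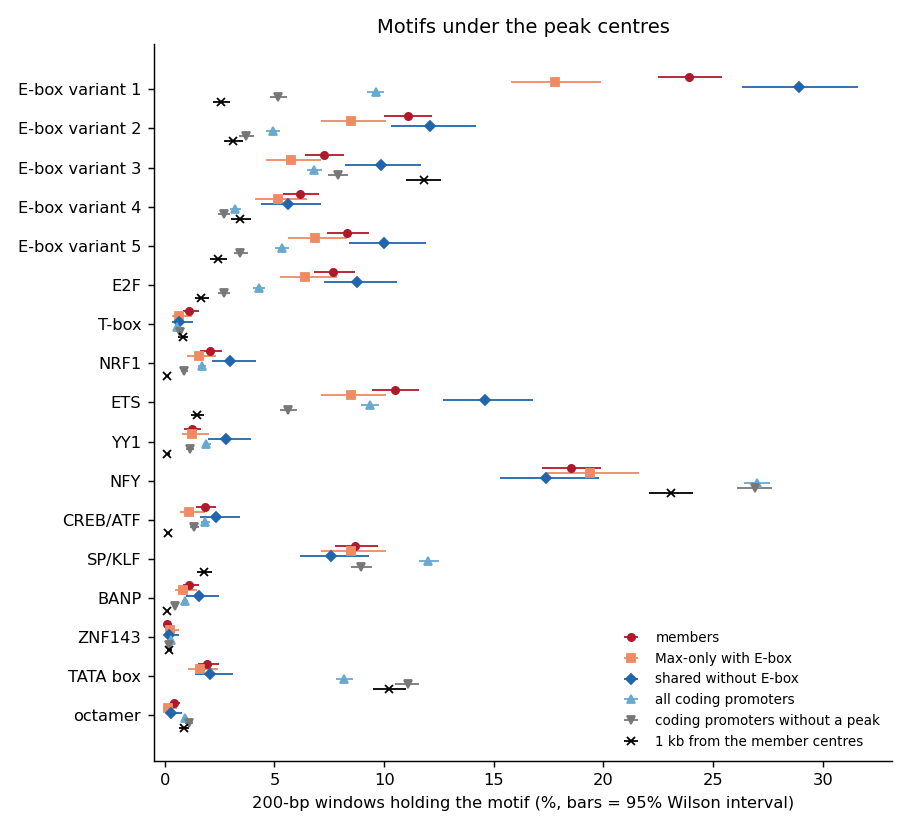
The horizontal axis is the percent of 200-bp windows that hold a motif, with 95% Wilson intervals as bars, and each row is 1 of 17 motifs (variant 1 is CACGCG, variant 2 is CACGAG, variant 3 is CATGTG, variant 4 is AACGTG and variant 5 is CATGCG). Circles are the 3203 members, squares and diamonds the compared peaks, and triangles and crosses the promoter and neighbouring windows. For variant 1 the members, at 23.9%, lie between the compared classes at 17.8% and 28.9%.

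Within the members, the sequence varied with the score. CACGCG was found in 27.7% (95% interval 24.3 to 31.2) of the 640 highest-scoring members, from 224.31 up, and in 17.9% (15.2 to 21.1) of the 641 lowest, up to 96.87. The mean GC content was 67% and 64.9%, respectively. The peak covered a coding TSS in 90.8% of the highest and 70.7% of the lowest. CATGTG was found in 5% of the highest and 8.58% of the lowest. Members with CACGCG had a median score of 154.1, and those without it 133.7. Among the 100 highest-scoring members, 31 held CACGCG, 21 CCAAT, 17 the E2F motif, 17 CATGCG and 10 the NRF1 motif. The shares over all members were 23.9%, 18.5%, 7.68%, 8.3% and 2.06%. The 95% intervals of CACGCG (22.8% to 40.6%) and CCAAT (14.2% to 30%) included these shares. Those of E2F and CATGCG (10.9% to 25.5% each) and NRF1 (5.52% to 17.4%) did not, without widening over the 17 motifs. Other motifs were less frequent, with CACGAG in 9, ETS in 8, SP/KLF in 6 and CATGTG in 4. Over all members these were found in 11.1%, 10.5%, 8.68% and 7.24%. The NRF1 motif contains CATGCG, so the counts of these 2 overlap.

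The members lay at the promoters of 3369 of 20336 coding genes, which is 16.6%. For comparison, 12.7% of coding genes had a shared peak and 7.12% a Max-only peak with an E-box. The 16.6% counts genes without any Max peak as well, and 12825 of 20311 coding promoters had no peak of either list. A list whose genes often had a Max peak of any class can therefore exceed it. Members were 46.8% of the 6851 Max peaks at coding promoters. No list share was adjusted for genes without a Max peak, and the list intervals were not widened over the 26 lists. In 3076 of the 3369 genes, 91.3%, the member was the only promoter peak of either list. A Bio-Myc peak within 1 kb of another part of the promoter or of another TSS was found in 161 genes, 4.78%. Among these the highest-scoring members lay at Fscn1, which encodes the actin-bundling protein fascin, with 534.1, and at Ptdss2, a phosphatidylserine synthase gene, with 490.41. A single member touched the promoter windows of 2 coding genes in 322 cases and of 3 or more in 9. Conversely, 161 genes had 2 or more members, with 5 at Bahcc1 and 4 at Sept9, both on chromosome 11 and with several annotated TSSs.

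Genes of the Mga and Max complexes themselves had few members. Of 14 genes of the PRC1.6 complex, 0 had a member, which allows a share of up to 21.4% by the limit for a count of 0, while 8 had a shared peak and 4 a Max-only peak with an E-box. Of 13 genes of the Myc, Max and Mxd network, 1 had a member, Mlxipl, which encodes the glucose-responsive factor ChREBP, with a score of 84.02. In the same list 6 genes had a shared peak and 3 a Max-only peak with an E-box. Both lists are short, and a share below the 16.6% of all coding genes was not detectable in either.

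Meiotic and germline genes had members at 8 of 38 promoters, 21.1% (95% interval 11.1 to 36.3, which includes the 16.6% of all coding genes), and Max-only peaks with an E-box at 15. Gm1564 had the highest score, 834.76, followed by Syce1, a component of the synaptonemal complex, with 564.97. Hsf2bp had 277.02, Spo11, which makes the meiotic DNA breaks, 247.84, and Dmc1, a meiotic recombinase, 207.95. Of these 8 members 2 held an E-box variant and 0 held CATGTG, while 4 held none of the motifs. Spo11 held CACGCG and CACGAG in its central 200 bp.

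Circadian clock genes had members at 8 of 17 promoters, 47.1% (95% interval 26.2 to 69) beside 16.6% of all coding genes. Shared peaks lay at 5 of the 17, and 3 had no Max peak. The members were Per2 with 407.92, Cry2 with 309.53, Per3 with 202.79, Hlf with 191.11, Clock with 161.74, Per1 with 115.66, Rora with 114.08 and Dbp with 103.08. Per and Cry proteins are the repressors of the clock, Clock is an activator that binds E-boxes, and Hlf and Dbp are PAR bZIP factors under its control. All 8 members held an E-box variant in the central 200 bp, with CATGTG in 6 and CACGCG in 5, against 45.8%, 7.24% and 23.9% over all members. Dbp also had a shared peak, and its member lay 458 bp from a Bio-Myc peak. The stretch around the variant nearest to each centre, the CACGCG or CATGTG match in capitals on either strand, is given for each gene.
Per2: ttacataagacgCACATGgaactccatgtt
Cry2: tcacgttcccacCATGTGtggtcccgcttg
Per3: ctcgaggccgtcCGCGTGcccagtggccgc
Hlf: catcaggcagtcCATGTGccgctgccctga
Clock: actcaccgggagCGCGTGcgcggcggcggc
Per1: ctgtggcggaagCGCGTGgtggggccaggc
Rora: atgtcagccggtCACATGgagcctcttatg
Dbp: gcctcgcagggtCACATGgaaactagggat
In mm9 these lie at chr1:93356019-93356048 (Per2), chr2:92274386-92274415 (Cry2), chr4:150418772-150418801 (Per3), chr11:90252197-90252226 (Hlf), chr5:76733674-76733703 (Clock), chr11:68913549-68913578 (Per1), chr9:69137669-69137698 (Rora) and chr7:52961447-52961476 (Dbp). The sharing of variants in these genes was noticed after the values were seen.

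Pluripotency factors had members at 5 of 19 promoters, 26.3% (95% interval 11.8 to 48.8, which includes 16.6%). Klf5 had 303.57, Sall4 176.43, Fgf4 100.11, Pou5f1, which encodes Oct4, 97.05 and Tbx3 95. Of the same list, 4 genes had a shared peak, 1 had a Max-only peak with an E-box and 9 had none of these. Among Polycomb PRC2 genes, Aebp2 with 299.62, Ezh1 with 208.07 and Phf1 with 104.57 had members. These were 3 of 10, 30% (95% interval 10.8 to 60.3, which includes 16.6%), and 5 had shared peaks.

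In the lists of the translation machinery, shared peaks outnumbered members. Cytosolic ribosomal protein genes had members at 3 of 75 promoters, 4% (95% interval 1.37 to 11.1) beside 16.6% of all coding genes, and shared peaks at 70. The 3 were Rps18 with 318.39, Fau with 212 and Rps10 with 88.79. Rps18 and Rps10 also had a shared peak, and the centre of the Rps18 member lay 1112 bp from the nearest TSS of that gene. Aminoacyl-tRNA synthetase genes had members at 2 of 33 (interval 1.68% to 19.6%), Mars2 with 359.52 and Wars with 182.51, and shared peaks at 20. Translation initiation factors, counted together with the Argonaute gene Eif2c1, had members at 8 of 54, 14.8%, and shared peaks at 28. Eif2b1 had the highest score, 394.13. The share of 14.8% lay above the 13.5% of all coding genes where the peak had to cover the TSS. Olfactory receptor genes, which ESCs keep silent, had members at 2 of 1076.

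Mitochondrial ribosomal protein genes had members at 20 of 71 promoters, 28.2% (95% interval 19 to 39.5) beside 16.6% of all coding genes, led by Mrps7 with 580.92 and Mrpl11 with 378.34. Shared peaks lay at 28 of the 71, and 18 had no Max peak. Oxidative phosphorylation genes had members at 19 of 83, 22.9% (15.2 to 33), led by Cox18 with 394.13 and Sdha, a succinate dehydrogenase subunit, with 377.93. Proteasome genes had members at 8 of 38, 21.1% (11.1 to 36.3), led by Psmd12 with 678.53. The intervals of the last 2 lists included 16.6%. Some peaks served a pair of list genes, since Mrpl49 and Fau shared 1 member, as did Mrpl47 and Ndufb5.

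The shares in the lists of genome maintenance and transcription stood beside 16.6% of all coding genes. Homologous recombination and Fanconi genes had members at 10 of 32 promoters, 31.2% (95% interval 18 to 48.6), led by Xrcc3 with 311.96, Bard1, the partner of Brca1, with 290.97, and Fancl with 240.98. DNA replication genes had members at 8 of 37, 21.6% (11.4 to 37.2), led by Cdc7, an origin-firing kinase, with 257.56, followed by Gins1 with 159.37, Rfc4 with 154.94, Rfc5 with 154.77 and Pold3 with 144.27. RNA polymerase subunit genes had members at 7 of 26, 26.9% (13.7 to 46.1), led by Polr3f with 363.3 and Polr2a, the largest subunit of RNA polymerase II, with 298.79. General transcription factor and Mediator genes had members at 14 of 68 annotated genes, 20.6% (12.7 to 31.6), where Taf9 is annotated under 2 identifiers. Genes of snRNP, SF3, SR and Lsm proteins had members at 7 of 37, 18.9% (9.48 to 34.2), led by Lsm11 with 255.13. All intervals but that of the recombination genes included the 16.6%. Of these 32 recombination genes, 11 had a shared peak and 9 had no Max peak.

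Lists of trafficking, ciliary and zinc finger genes had members at more promoters than shared peaks, as had all coding genes, with 16.6% against 12.7%. Rab GTPase genes had members at 15 of 49 promoters, 30.6% (95% interval 19.5 to 44.5), and shared peaks at 5. Rab10 had 298.38, Rab37 273.95 and Rab33b 254.36. Kinesin genes had members at 12 of 37, 32.4%, and shared peaks at 5, with Kif1b highest at 272.29. Ciliary Ift and Bbs genes had members at 6 of 19, 31.6% (95% interval 15.4 to 54, which includes 16.6%). They had shared peaks at 2, and Bbs12 had the highest member score, 163.01. With a score of at least 150, the share of all coding genes was 7.59%, that of the ciliary genes 5.26% and that of the Rab genes 8.16%. Zfp zinc finger genes had members at 76 of 354 annotated genes, 21.5%, and shared peaks at 38, with Zfp335 at 1039.38 and Zkscan2 at 514.91 leading. The 76 were 75 symbols, since Zfp664 is annotated under 2 identifiers. Ube2, Usp and F-box genes of the ubiquitin system had members at 37 of 146, 25.3%, led by Fbxw4 with 465.77. Solute carriers, with 52 of 322 or 16.1%, and autophagy genes, with 4 of 16 (95% interval 10.2% to 49.5%), stood beside the same 16.6%. Slc27a3 had 492.48 and Atg9a 155.9. Hox cluster genes had members at 2 of 40, 5% (95% interval 1.38 to 16.5), and Max-only peaks with an E-box at 6.

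**Figure D5:**
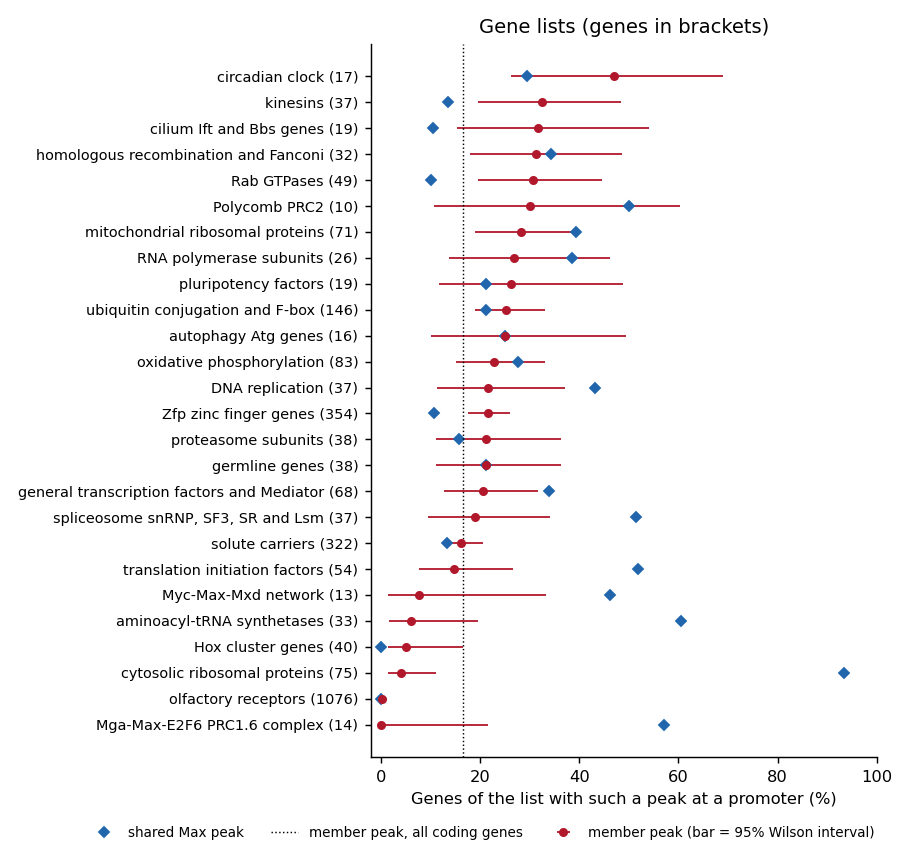
Each row is 1 of 26 gene lists with its number of genes in brackets, and the horizontal axis is the percent of its genes with a peak at a promoter. Red points are members with 95% Wilson intervals, blue diamonds shared Max peaks, and the dotted line marks 16.6%, the share of all coding genes with a member. Cytosolic ribosomal protein genes show the widest gap, with 4% against 93.3%.

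The members were not spread evenly over the chromosomes. Chromosome 11 held 390 members, or 23.6 per 100 coding genes, while the other 17 autosomes in scope held 10.7 to 17.6. It also held 18 of the 100 highest-scoring members, against 1 to 9 on the others. Max-only peaks with an E-box showed the same order, with 10.7 per 100 genes on chromosome 11 and 4.93 to 8.42 elsewhere. Shared peaks reached 15.2 on chromosome 11, within the range of 7.17 to 15.6 elsewhere. The median score of members on chromosome 11 was 139.4, within the range of 126.9 to 153.6 elsewhere. On chromosome 8, which the rule leaves out, 386 peaks met the other conditions.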

How the data were processed

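The authors sequenced the libraries on a HiScanSQ, used CASAVA 1.8, and mapped unique reads with up to 2 mismatches to mm9 with Bowtie 0.12.7. Duplicates of the same read were removed. Peaks were theirs as well, from MACS 1.4.1 with the mock or IgG ChIP as control and 1e-08 as the p-value limit. The deposited score of a peak is −10 times the log10 of that p-value. The lists hold no read counts, so the depth of each library is unknown, and the fixed p-value ties the number of peaks to it. Unique mapping leaves most repeats unseen.

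The members and gene lists were chosen with earlier results of these data known. Peaks were read as 0-based BED intervals and compared by overlap of at least 1 bp. Coding TSSs and gene parts came from GENCODE M1 on mm9, with all TSSs. Motifs were searched as exact matches on both strands in the central 200 bp. Shares carry 95% Wilson intervals and differences Newcombe intervals, widened by Bonferroni over 34 motif and 10 feature comparisons. A difference was called where the widened interval excluded 0. No test across cultures was possible with 1 library per ChIP, and no p-value was computed. Named genes were those of the 10 highest-scoring members, of peaks next to each limit, of the highest-scoring member with each motif in its central 100 bp, and of up to 5 highest-scoring members per list. Genes named for TSSs of both strands, for Bio-Myc peaks at the same gene and for several members per gene were picked after their values were seen. So were the clock genes after the 5 highest. Some genes that these rules name are not reported here. The overlap, motif and interval functions were checked on simulated data. Other promoter windows, score limits, motif windows and overlap rules were tried as alternatives. The mock and IgG libraries were used only through the authors' peak calling. Python 3.11.15, numpy 2.4.6, scipy 1.17.1 and pysam 0.24.0 were used.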

Additional observations from a re-analysis of the deposited data

How the results depend on the processing

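The number of members, 3203, stayed between 2596 and 3860 under 10 alternatives of the rule, and was 1397 and 806 at p-value limits of 1e-15 and 1e-20. The share of coding genes with a member, 16.6%, was 13.5% where the peak had to cover the TSS, 7.59% at the limit of 1e-15, 17.5% with chromosome 8 and 15.9% without chromosome 11. Of 26 lists, 24, 23, 26 and 26 kept their side of that share. The median distance of 118 bp from the TSS was 0 bp from the nearest edge of the peak.

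Against Max-only peaks with an E-box, 1 motif was called under all alternatives except the weighting to the members' GC content, which gave 0. In whole peaks the motif called was CCAAT, at −5.11 points, and not CACGCG. Against shared peaks without an E-box, the 3 calls became 0 in central windows of 100 bp, 0 at the limit of 1e-15, 0 where a Bio-Myc peak within 1 kb counted as shared, 0 when weighted to the members' scores, 1 where the peak had to cover the TSS, 1 without chromosome 11 and 11 in whole peaks, which are wider in the shared class. In whole peaks AACGTG, at −5.69 points, and CCAAT, at −7.15 points, turned lower in the members. The features called against Max-only peaks with an E-box went from 2 to 1 with weighting to GC content. Where the peak had to cover the TSS, 1 feature was called in each comparison, instead of 2 and 3. Covering a TSS was among the called features in both comparisons. It was fixed in that setting and not compared, so the loss of its call is not a result. With weighting to scores the features called were 3 against Max-only peaks with an E-box and 2 against shared peaks. The ETS and YY1 differences from shared peaks were −4.19 and −2.27 points with that weighting, against −4.18 and −1.58, with wider intervals. The alternatives without chromosome 11 and with weighting to scores, and all those for features, were chosen after seeing the data. No paired analysis was possible because each ChIP has 1 library. The depth, which the lists do not give, limits which weak peaks were called in either list.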
